A study of Mus musculus with 7 samples.

Results

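Of the 22880 genes of the table, 37 genes of the interferon response and of antigen presentation were picked out by a list of gene names, drawn up with earlier results of these data known, and each was found once. The set holds 30 interferon response genes (signalling factors, RNA sensors, antiviral effectors, membrane restriction factors and guanylate binding proteins) and 7 genes of peptide presentation on class I molecules of the major histocompatibility complex. RNA was sequenced from P14 optic nerves of 4 control mice (CT) and 3 conditional mutant mice (cMU), both nerves of 1 mouse making 1 sample. Both groups were recorded as carrying loxP sites in both Fasn alleles (FASN lox/lox) on a C57Bl/6 background, and the mutants (olig2cre FASN lox/lox) also expressed Cre from Olig2 regulatory elements. Deletion is thereby aimed at oligodendrocyte (OL) lineage cells, and not at the microglia, vessels and meninges of the nerve. For developmental studies the paper's methods also name controls with 1 floxed allele (Fasn lox/wt). They describe a floxed line of mixed strain origin, backcrossed to C57BL/6 for at least 3 generations. Each value is a mean over the whole nerve, so a smaller number of cells of a type and less RNA per cell cannot be told apart. The comparison addresses how the nerve transcriptome differs where OLs cannot make fatty acid synthase.

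Interferons bind receptors at the cell surface, whose Janus kinases phosphorylate STAT2. A complex that holds STAT2 and IRF9 binds interferon-stimulated response elements (ISREs) in promoters and turns on a shared program of antiviral genes. Interferon gamma acts through gamma-activated sites (GAS) and raises the immunoproteasome, peptide transporters and class I molecules that show peptides to T cells. In the central nervous system microglia, astrocytes, endothelial cells and OLs can all mount this response.

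Promoter sequences are shown because the genes of this set varied together between mice, and the ISRE is the element that most of them are known to share. RefSeq promoters (GRCm38.p6, 250 bases before to 50 bases after the start) were listed for 29 of the 37 genes. An ISRE was searched as GAAA, any 2 bases and GAAA or, for the other strand, as TTTC, any 2 bases and TTTC, and matches may overlap each other. It was found in 15 of these 29 genes (51.7%), against 1079 of the 27025 genes with a listed promoter (3.99%). The genes were picked by name for their part in the interferon response. A high share of ISRE, and of GAS below, was thus built into the choice of the list. Whether either element bears on the variation between mice was not tested. Of the interferon response genes 14 of 23 held a match, and of the antigen presentation genes 1 of 6, B2m. The search took these exact letters only. A gene without a match may thus hold an ISRE that departs from them. A GAS was searched as TTCNNNGAA, which reads the same on both strands and may overlap an ISRE match. It was found in 8 of the 29 genes (27.6%), in 9.55% of the same 27025 genes and in 8.28% of the tested genes among them. The 5 stretches below run from 140 to 21 bases before the start, 5′ to 3′ on the strand of the gene, with ISRE matches in capitals. Isg15 (chr4:156200839-156200958, minus strand) has 3 overlapping matches, Ifit1 (chr19:34640749-34640868, plus strand) has 2, and Rsad2 (chr12:26456473-26456592, minus strand), Ifitm2 (chr7:140955982-140956101, minus strand) and B2m (chr2:122147547-122147666, plus strand) have 1 each. The first 3 were among the genes that varied most between mice, as were Irf7 and Oasl2, whose listed promoters held no match. Ifitm2 had the highest fold change of the set, and B2m had the highest level.
Isg15: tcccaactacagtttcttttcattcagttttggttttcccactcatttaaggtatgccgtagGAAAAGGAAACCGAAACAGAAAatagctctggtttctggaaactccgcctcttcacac
Ifit1: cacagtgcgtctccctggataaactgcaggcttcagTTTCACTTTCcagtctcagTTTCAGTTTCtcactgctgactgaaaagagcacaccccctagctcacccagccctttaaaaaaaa
Rsad2: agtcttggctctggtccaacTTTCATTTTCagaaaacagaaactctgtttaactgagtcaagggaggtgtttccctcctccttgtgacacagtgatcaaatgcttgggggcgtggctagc
Ifitm2: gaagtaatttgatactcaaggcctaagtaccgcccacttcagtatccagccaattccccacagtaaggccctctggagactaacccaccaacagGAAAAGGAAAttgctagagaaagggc
B2m: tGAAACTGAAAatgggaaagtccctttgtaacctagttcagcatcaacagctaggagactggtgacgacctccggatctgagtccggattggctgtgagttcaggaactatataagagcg
A match is a run of letters, and no binding was measured here.

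Estimated depth was 31314433 to 43462575 reads in control samples and 27452222 to 35750061 reads in mutant samples. Fasn checked the genotype: its level was 169 to 228 FPKM (fragments corrected for gene length and sequencing depth) in control and 49.0 to 69.3 FPKM in mutant nerves, a mutant mean of 27.5% of the control mean (adjusted p = 0.00312, limma-trend). In all, 13866 genes reached 0.5 FPKM in 3 or more samples and were tested, and 363 (2.62%) had an adjusted p under 0.05. This count rested on single libraries and was between 6 and 909 with 1 sample left out.

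Within each genotype 1 library stood apart for these genes. Control sample 4 had the highest FPKM of the 4 controls in 33 of the 37 genes (89.2%), against 29.6% of all genes tested. Mutant sample 1 had the highest FPKM of the 3 mutants in all 37 genes, against 48.3% of all genes tested. Both held for 33 genes (89.2%), against 17.6% of all genes tested. On the deposited normalized counts, a scale without gene length, both held for 32 genes (86.5%), against 11.3% of all genes tested. The exceptions among controls were Usp18 and B2m (highest in control 2), Ifi27 (control 3) and Ifitm2 (control 1). The median ratio of control 4 to the mean of the other controls was 1.57 (1.01 over all genes tested), and that of mutant 1 to the mean of the other mutants was 1.53 (1.05 over all genes tested). These 2 libraries were singled out after their values were seen, so the ratios are a description with no test. The ratios of the 37 genes lay between 0.996 (Ifi27) and 2.78 (Isg15) in control 4 and between 1.126 (Ifit2) and 3.39 (Usp18) in mutant 1.

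**Figure D1:**
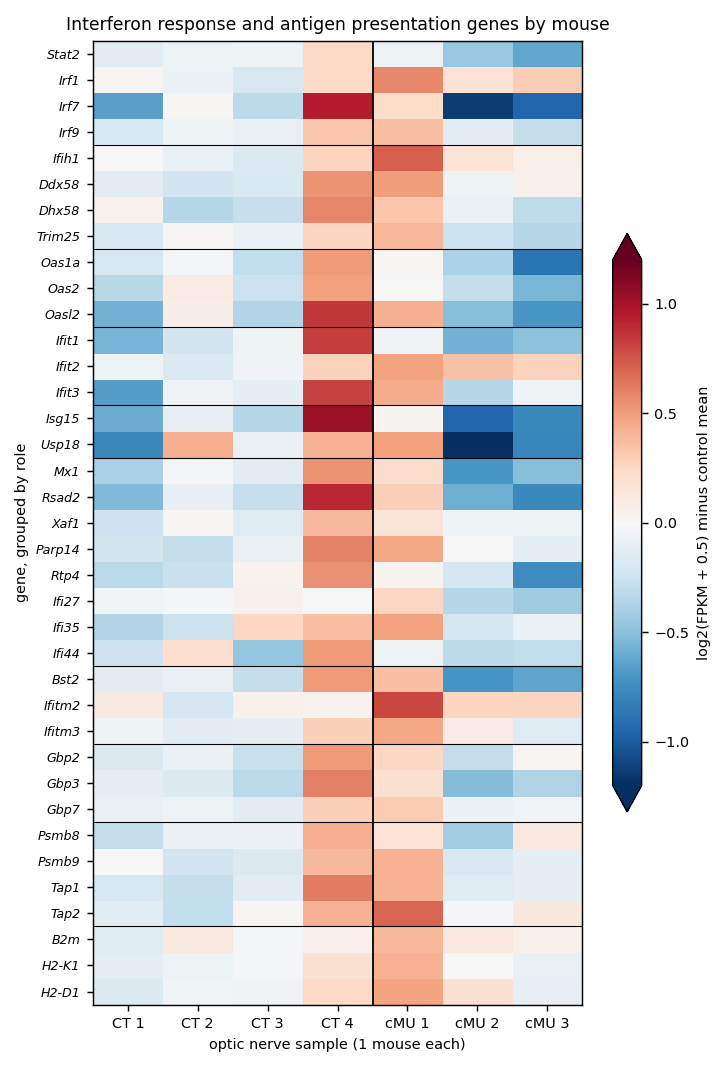
Level of each of the 37 genes (rows, grouped by role) in each optic nerve sample (columns, CT for control and cMU for mutant), as log2(FPKM + 0.5) minus the control mean, with colours saturating at the ends of the scale. Control 4 and mutant 1 are the columns with mostly higher values, and the mutants 2 and 3 are mostly at or below the control mean.

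**Figure D2:**
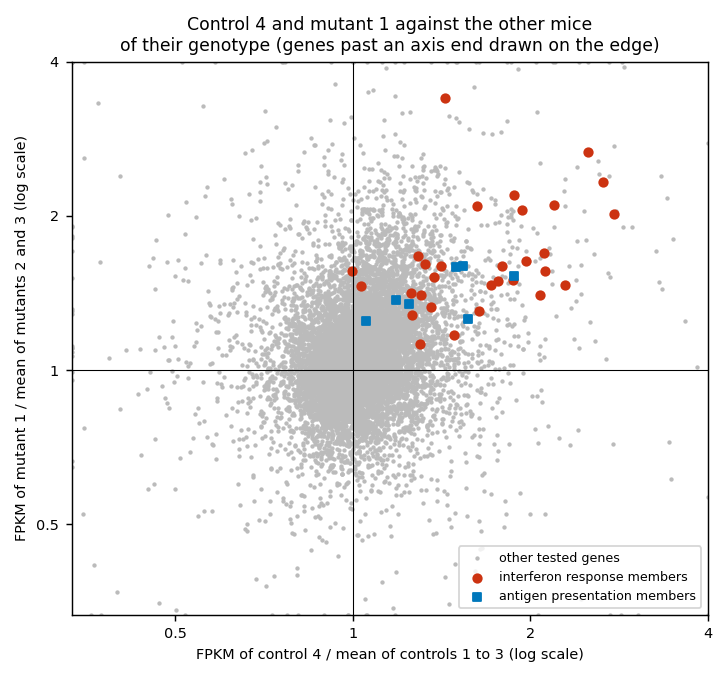
Ratio of FPKM in control 4 to the mean of the other controls (x axis, log scale) and in mutant 1 to the mean of the other mutants (y axis, log scale) for every tested gene (grey) and for the 30 interferon response (circles) and 7 antigen presentation members (squares), with genes past an axis end drawn on the edge. All members lie above 1 on the y axis and all but Ifi27, at 0.996, lie above 1 on the x axis.

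Between genotypes none of the 37 genes passed the adjusted threshold, against the 2.62% of all tested genes that did. The smallest adjusted p was 0.0959 (Ifit2, limma-trend). Before adjustment, p was under 0.05 in 4 genes, where 24.4% of all tested genes reached that level. Of these, Ifit2, Ifitm2 and Irf1 had a higher mean in mutants (15.9% of all tested genes) and Stat2 a lower one (8.5%). The log2 fold changes, on the scale of log2(FPKM + 0.5), ran from -0.62 (Irf7) to 0.44 (Ifitm2) with a median of -0.02, against 0.05 over all genes tested. They were positive in 17 genes and negative in 20. Scaling moved this split: it was 11 positive and 26 negative on normalized counts, after quantile normalization and after median centring. Only Ifit2 and Ifitm2 had groups that did not overlap, both higher in mutants, where 21.1% of all tested genes did not overlap and 12.9% did not overlap and were higher. On normalized counts the groups of Ifit2 overlapped, and the members without overlap were Ifitm2 (higher) and Stat2 (lower).

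The spread between mice set how small a difference could be seen. The median 95% confidence interval of a member reached 0.47 on either side of its log2 fold change, compared with 0.24 over all genes tested. The median SD of the log2 values was 0.35 in controls and 0.33 in mutants, and 0.12 in controls without control 4. On the scale of log2(FPKM + 0.5) the interval lay within -1 and 1 in 31 genes, and within -0.5 and 0.5 in 12 genes. In the other 6 genes (Irf7, Oasl2, Ifit1, Isg15, Usp18 and Rsad2) the interval reached beyond -1. These counts depended on the scale. On normalized counts the interval also reached beyond -1 in Oas1a (-1.63), Oas2 (-1.30), Mx1 (-1.29), Ifi44 (-1.28), Rtp4 (-1.07) and Bst2 (-1.003). With limma-voom on estimated counts it did so in Oas1a, Oas2, Mx1 and Ifi44.

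The sign of the median depended on which libraries were kept. Without control 4 the median log2 fold change was 0.15, without mutant 1 it was -0.17, and without both it was -0.01. The log2 fold change was positive in 23 genes and negative in 13 without control 4, and positive in 7 and negative in 29 without mutant 1, with 1 gene in each case no longer tested. An unadjusted p under 0.05 was found for 10 genes without mutant 1, against 4 with all samples. With all samples 24.4% of all tested genes reached that level. The share of all genes without mutant 1 is not given here, so the count of 10 is not read as a result about the members. Without mutant 1 a single member passed the threshold, Ifi27, an interferon-induced mitochondrial protein, with a log2 fold change of -0.39 (adjusted p = 0.0356, limma-trend, and up to 0.885 over the other alternatives). In that fit 1.39% of all genes tested were called. With the sample numbers as a replicate block, which pairs 3 controls with 3 mutants and takes nothing from control 4, the median was 0.14 (23 positive and 14 negative) and 3 members were higher in mutants: Ifit2 (adjusted p = 0.0293), Ifitm2 (adjusted p = 0.0422) and Irf1 (adjusted p = 0.0435, all limma-trend). Over all alternatives the adjusted p rose to 0.222, 0.230 and 0.351 in these genes. With the block 6.42% of all genes tested were called higher. What the sample numbers stand for is not given in the labels.

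**Figure D3:**
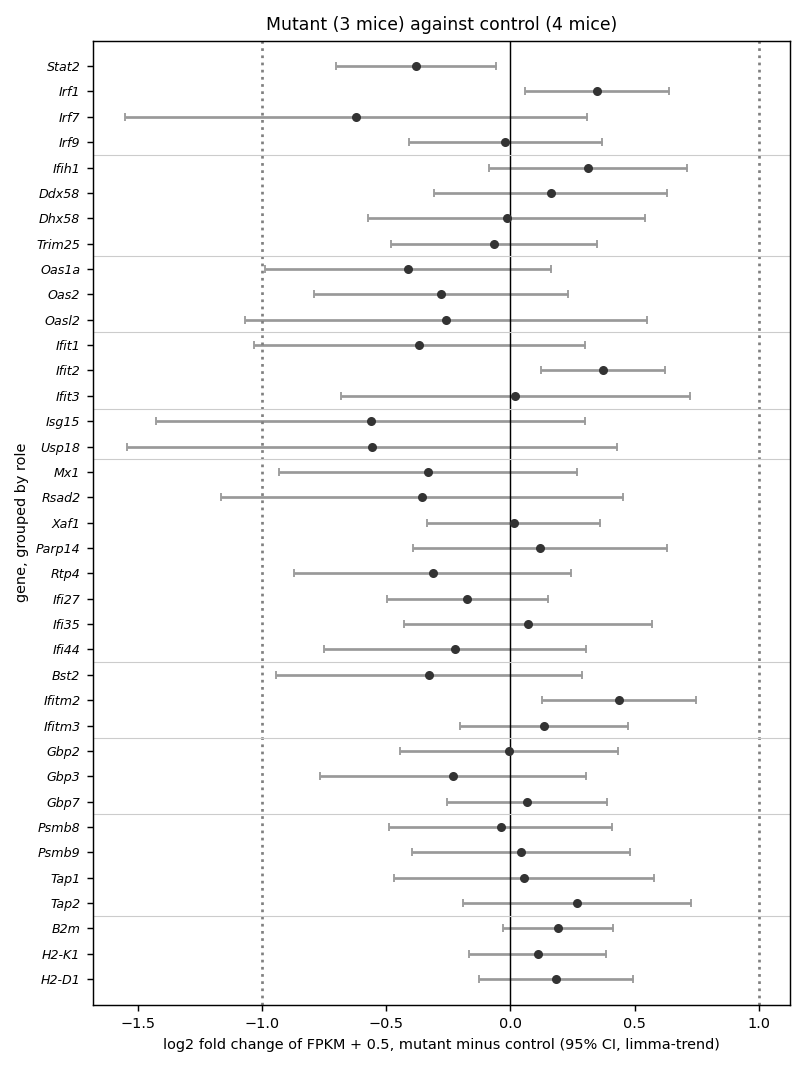
Log2 fold change of FPKM + 0.5 between mutant (3 mice) and control (4 mice) for each of the 37 genes, with its 95% confidence interval from limma-trend and dotted lines at -1 and 1. The interval includes 0 in 33 genes, and those of Irf1, Ifit2 and Ifitm2 lie above 0 and that of Stat2 below 0.

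Among the signalling and transcription factors, Stat2 (ENSMUSG00000040033, chromosome 10, 128270576 to 128292849, GRCm38) encodes the STAT subunit specific to the type I and III response. Controls 1 to 4 had 10.1, 10.6, 10.7 and 13.1 FPKM, and mutants 1 to 3 had 10.6, 7.90 and 7.001 FPKM. Mutants 2 and 3 lay below every control, whereas mutant 1 lay among them. The means were 11.1 ± 1.36 (SD, n = 4) and 8.49 ± 1.85 (SD, n = 3) FPKM, with a log2 fold change of -0.38 (SE 0.14, adjusted p = 0.149, limma-trend). On normalized counts the groups of Stat2 did not overlap, with an adjusted p of 0.0759 (limma-trend, 0.0661 to 0.345 over all alternatives), and 13.3% of all tested genes were non-overlapping and lower on that scale.

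Irf1 (ENSMUSG00000018899, chromosome 11, 53770014 to 53778374), a factor that activates antigen presentation genes, stood at 9.25, 8.63, 7.91 and 10.8 FPKM in controls and at 13.8, 10.3 and 11.3 FPKM in mutants. Only control 4 exceeded the lowest mutant. The log2 fold change was 0.35 (SE 0.13, adjusted p = 0.144, limma-trend), and the blocked value is given above. Irf1 overlaps Gm17334 on the other strand, which was at 0.14 FPKM or less on average.

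Irf7 (ENSMUSG00000025498, chromosome 7, 141262706 to 141266481), the factor that amplifies type I interferon production, was the member with the lowest log2 fold change, -0.62 (95% confidence interval -1.55 to 0.31, adjusted p = 0.380, limma-trend). The controls measured 3.42, 5.75, 4.48 and 11.4 FPKM and the mutants 6.67, 2.31 and 2.70 FPKM. Mutant 1 exceeded 3 of the controls, so the groups overlapped widely. The log2 fold change of Irf7 was -0.31 without control 4 and -1.04 without mutant 1 (adjusted p = 0.191, limma-trend, and up to 0.645 with another sample left out). Irf9 (ENSMUSG00000002325, chromosome 14, 55603571 to 55610030), the DNA-binding partner of STAT2, had 6.78, 7.45, 7.26 and 9.85 FPKM in controls and 10.1, 7.001 and 6.28 FPKM in mutants (log2 fold change -0.02, SE 0.17, adjusted p = 0.953, limma-trend). Irf7 overlaps Phrf1 on the other strand by 45 bases and Irf9 overlaps Rnf31 on the same strand by 123 bases.

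The RNA sensors Ifih1 (MDA5), Ddx58 (RIG-I) and Dhx58 (LGP2) recognise double-stranded or uncapped RNA, and Trim25 ubiquitinates RIG-I. Their log2 fold changes were 0.31, 0.16, -0.02 and -0.07, and none passed the threshold. Ifih1 had 2.54, 2.39, 2.21 and 3.16 FPKM in controls and 4.51, 2.93 and 2.68 FPKM in mutants. All mutants exceeded controls 1 to 3, and control 4 exceeded mutants 2 and 3. In Ddx58 the controls 1 to 3 lay between 4.03 and 4.35 FPKM and control 4 at 7.18 FPKM, while mutant 1 stood at 7.001 FPKM and the other mutants at 4.57 and 4.99 FPKM. Dhx58 (0.718 to 1.81 FPKM in controls, 0.755 to 1.45 FPKM in mutants) was expressed at a lower level than the other sensors.

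The oligoadenylate synthetases Oas1a and Oas2 make the messenger that activates RNase L, and Oasl2 is a related protein. Oas1a and Oas2 were low, at 0.359 to 1.76 FPKM and 0.423 to 1.40 FPKM over all samples, with log2 fold changes of -0.41 and -0.28. Oasl2 was at 9.93, 15.8, 11.7 and 27.4 FPKM in controls and 20.4, 10.4 and 9.04 FPKM in mutants. Its highest and lowest values were a control and a mutant, but mutant 1 exceeded 3 controls, and the log2 fold change was -0.26 (SE 0.36). Reads of Oas1a may be shared with close copies of the gene, which makes its level uncertain.

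The Ifit family binds foreign RNA. Its 3 members are neighbours on chromosome 19, none passed the threshold, and differences between them were not tested. Ifit2 (ENSMUSG00000045932, 34550694 to 34576419) was at 12.8, 11.8, 12.9 and 16.2 FPKM in controls and at 18.8, 17.2 and 16.3 FPKM in mutants. Every mutant exceeded every control, although mutant 3 exceeded control 4 by less than the spread of either group. The means were 13.4 ± 1.93 (SD, n = 4) and 17.4 ± 1.30 (SD, n = 3) FPKM, or 130% of the control level, with a log2 fold change of 0.37 (95% confidence interval 0.12 to 0.62, adjusted p = 0.0959, limma-trend). For one gene at a time, 4 against 3 mice are too few for an exact permutation test to fall below 0.05. Ifit2 and Ifitm2 had the smallest two-sided p that the design allows, 0.0571 (exact permutation test). Groups that do not overlap always give this p, and 21.1% of all tested genes did not overlap. Ifit1 was at 3.00, 3.93, 4.46 and 8.68 FPKM in controls and 4.51, 2.98 and 3.17 FPKM in mutants (log2 fold change -0.37, SE 0.29). Ifit3 ranged from 13.9 to 39.5 FPKM in controls and from 17.4 to 30.5 FPKM in mutants (log2 fold change 0.02, SE 0.31), and its reads may be shared with a near-identical copy. In Ifit1 and Ifit3 control 4 was the highest sample of all 7, whereas in Ifit2 all mutants lay above it.

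Isg15 (ENSMUSG00000035692, chromosome 4, 156199424 to 156200818) encodes a ubiquitin-like modifier, and Usp18 (ENSMUSG00000030107, chromosome 6, 121245906 to 121270916) the protease that removes it and damps receptor signalling. Isg15 was at 3.45, 5.09, 4.20 and 11.8 FPKM in controls and 5.62, 2.60 and 2.99 FPKM in mutants. Control 4 was 2.78 times the mean of the other controls, the highest such ratio of the set. The log2 fold change was -0.56 (95% confidence interval -1.43 to 0.30, adjusted p = 0.392, limma-trend), and it was -0.22 without control 4 and -0.86 without mutant 1. Usp18 measured 2.49, 6.43, 4.36 and 6.33 FPKM in controls and 6.69, 1.47 and 2.47 FPKM in mutants. Mutant 1 was the highest of all samples and 3.39 times the mean of the other mutants, which were the lowest samples. The log2 fold change of Usp18 was -0.56 (95% confidence interval -1.54 to 0.43, adjusted p = 0.460, limma-trend), and it was -0.15 without mutant 2 and -1.08 without mutant 1.

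**Figure D4:**
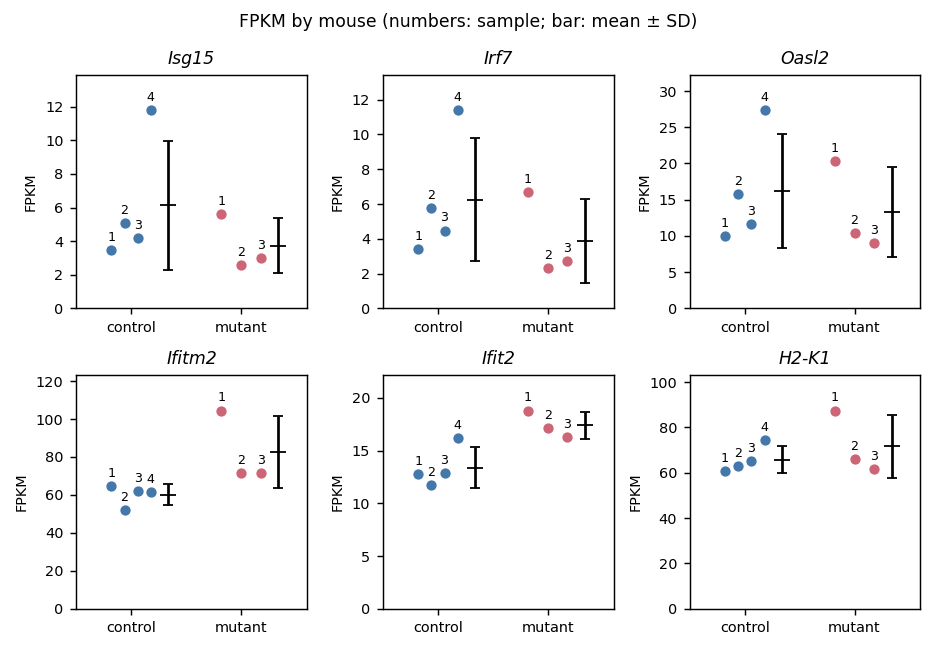
FPKM of Isg15, Irf7, Oasl2, Ifitm2, Ifit2 and H2-K1 in each of 4 control and 3 mutant mice (points with the sample number; bars are mean ± SD, y axes start at 0). Control 4 and mutant 1 are the highest points of their groups in all panels except Ifitm2, where control 1 is the highest control, and Ifitm2 and Ifit2 are the panels in which the groups do not overlap.

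The other antiviral effectors and induced genes include the dynamin-like GTPase Mx1, viperin (Rsad2), the ADP-ribosyltransferase Parp14, the chaperone Rtp4, Xaf1, Ifi27, Ifi35 and Ifi44. Their log2 fold changes lay between -0.36 (Rsad2) and 0.12 (Parp14), and none passed the threshold. Rsad2 was at 1.40, 2.05, 1.76 and 4.62 FPKM in controls and at 2.83, 1.33 and 1.11 FPKM in mutants. Mx1 showed the same order of high samples, with 1.04, 1.499, 1.34 and 2.42 FPKM in controls and 1.83, 0.745 and 0.917 FPKM in mutants. Ifi27, the most abundant gene of this group, differed from it in the controls, which were close together at 54.6, 55.5, 58.2 and 55.8 FPKM. Its mutants were at 66.6, 43.9 and 41.5 FPKM, so 1 mutant lay above and 2 lay below all controls.

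Among the membrane restriction factors, Ifitm2 (ENSMUSG00000060591, chromosome 7, 140954839 to 140955961), which blocks virus entry from endosomes, was at 64.5, 52.0, 62.2 and 61.5 FPKM in controls and 104.5, 71.7 and 71.6 FPKM in mutants. All mutants exceeded all controls, and mutant 1 stood well above the other mutants. The means were 60.0 ± 5.55 (SD, n = 4) and 82.6 ± 19.0 (SD, n = 3) FPKM, the second being 138% of the first. The log2 fold change was 0.44 (95% confidence interval 0.13 to 0.75, adjusted p = 0.106, limma-trend) and 0.26 without mutant 1. Ifitm3, its neighbour and close relative, was at 75.4 to 100.7 FPKM in controls and 74.1 to 113.8 FPKM in mutants (log2 fold change 0.13, SE 0.15). Bst2 (tetherin), which holds budding virus at the membrane, was at 14.1, 14.6, 12.6 and 22.4 FPKM in controls and 20.1, 9.31 and 9.87 FPKM in mutants (log2 fold change -0.33, SE 0.27). Reads of Ifitm2 and Ifitm3 may be shared between them.

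The guanylate binding proteins Gbp2, Gbp3 and Gbp7, GTPases induced by interferon gamma, had log2 fold changes of -0.01, -0.23 and 0.07. Control 4 was at 15.5, 12.2 and 4.09 FPKM in the 3 genes, while controls 1 to 3 lay between 8.84 and 10.1, 6.21 and 7.28, and 2.91 and 3.09 FPKM. Mutant 1 was at 12.8, 9.08 and 4.15 FPKM, between control 4 and the other controls in Gbp2 and Gbp3 and just above control 4 in Gbp7.

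The 7 antigen presentation genes had a median log2 fold change of 0.11, with 6 positive and 1 negative, and none passed the threshold. The split was 4 positive and 3 negative on normalized counts, after quantile normalization and after median centring. Psmb8 (ENSMUSG00000024338, chromosome 17, 34197721 to 34201454) and Psmb9 (ENSMUSG00000096727, chromosome 17, 34181988 to 34187764) encode catalytic subunits of the immunoproteasome. Psmb8 was at 3.17, 3.72, 3.78 and 5.57 FPKM in controls and 4.55, 2.86 and 4.37 FPKM in mutants (log2 fold change -0.04, SE 0.20, adjusted p = 0.926, limma-trend). Psmb9 was at 2.25, 1.84, 1.93 and 3.09 FPKM in controls and 3.16, 1.92 and 2.04 FPKM in mutants (log2 fold change 0.04, SE 0.19, adjusted p = 0.916, limma-trend). In both genes the ranges of the groups overlapped over most of their extent.

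Tap1 (ENSMUSG00000037321, chromosome 17, 34187553 to 34197225) and Tap2 (ENSMUSG00000024339, chromosome 17, 34203527 to 34216321) form the transporter that carries peptides into the endoplasmic reticulum. Tap1 was at 3.44, 3.20, 3.61 and 6.41 FPKM in controls and 5.54, 3.57 and 3.69 FPKM in mutants (log2 fold change 0.06, SE 0.23, adjusted p = 0.910, limma-trend). Tap2 was at 6.99, 6.18, 7.79 and 10.4 FPKM in controls and 12.8, 7.62 and 8.46 FPKM in mutants (log2 fold change 0.27, SE 0.20, adjusted p = 0.443, limma-trend). Tap1 and Psmb9 overlap by 212 bases on opposite strands. Tap2 and B2m overlap Gm15821 and Patl2 on the other strand, both at 0.02 FPKM or less on average.

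B2m (ENSMUSG00000060802, chromosome 2, 122147686 to 122153083), the light chain of class I molecules, had the highest level of the set, at 152.8, 182.9, 167.2 and 176.2 FPKM in controls and 224.1, 183.9 and 175.9 FPKM in mutants. Mutant 1 exceeded all other samples, while mutant 2 lay just above the highest control and mutant 3 among the controls (log2 fold change 0.19, 95% confidence interval -0.03 to 0.41, adjusted p = 0.259, limma-trend). The heavy chain genes H2-K1 (ENSMUSG00000061232, chromosome 17, 33996017 to 34000333) and H2-D1 (ENSMUSG00000073411, chromosome 17, 35262730 to 35267499) share sequence with each other and with other class I genes, so reads may be split between them. H2-K1 was at 60.6, 62.9, 65.0 and 74.4 FPKM in controls and 87.4, 65.9 and 61.5 FPKM in mutants (log2 fold change 0.11, SE 0.12, adjusted p = 0.618, limma-trend). H2-D1 was at 100.3, 109.9, 109.2 and 132.7 FPKM in controls and 156.1, 127.3 and 104.8 FPKM in mutants (log2 fold change 0.18, SE 0.14, adjusted p = 0.439, limma-trend). Mutant 1 was again the highest of the 7 samples, and the groups overlapped in both genes.

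The wider pathway was followed in a second list of 103 genes, of which 82 could be tested. None passed the adjusted threshold, 13 had an unadjusted p under 0.05, all with a higher mean in mutants (15.9% of all genes tested), and 12 had groups that did not overlap, all higher (12.9% of all genes tested). The median log2 fold change was 0.14, with 68 positive and 14 negative, against a median of 0.05 over all genes tested. This split, and that of the receptors below, were taken on FPKM only. Scaling moved the split of the members, as given above. The share of positive values over all genes tested is not given here. Of 9 interferon genes in the table, 8 were listed at 0 in every sample, and interferon gamma reached at most 1 read in a sample.

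Of the receptors and receptor kinases 7 of 8 had a positive log2 fold change, and 4 had groups that did not overlap, all higher in mutants, where 12.9% of all genes tested did. Il10rb (chromosome 16, 91406164 to 91425834), a subunit of the receptors for interferon lambda and IL-10, was at 9.84, 9.23, 9.85 and 10.6 FPKM in controls and 17.6, 12.3 and 13.6 FPKM in mutants (log2 fold change 0.52, SE 0.12, adjusted p = 0.0559, limma-trend). The block brought its adjusted p to 0.0316 (limma-trend, 0.0316 to 0.146 over all alternatives), and it also called Ifnar1, Ifitm1 and the peptidase gene Erap1. It also passed after quantile normalization (3.04% of all genes tested were called), after median centring (2.88%) and without mutant 2 (6.58%). Ifnar1 (chromosome 16, 91485238 to 91507441), a subunit of the type I interferon receptor, was at 26.3, 22.7, 24.6 and 25.5 FPKM in controls and 32.9, 28.4 and 32.6 FPKM in mutants (log2 fold change 0.33, SE 0.08, adjusted p = 0.0613, limma-trend). Every mutant exceeded every control in both genes.

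The other receptor genes nearby, Ifnar2 (91372783 to 91405589) and Ifngr2 (91547072 to 91565169), had log2 fold changes of 0.05 (SE 0.08) and 0.14 (SE 0.08), and their groups overlapped. These 4 genes lie 144 kb (Ifnar2), 177 kb (Il10rb), 257 kb (Ifnar1) and 318 kb (Ifngr2) from Olig2, whose regulatory elements drive Cre and which itself was lower in mutants (73.9 ± 5.196 against 54.8 ± 6.12 FPKM, log2 fold change -0.43, adjusted p = 0.0439, limma-trend). The call of Olig2 was lost with any single sample other than mutant 2 left out (adjusted p 0.0681 to 0.132, limma-trend). The genotype at this locus and the loss of Fasn cannot be told apart in these groups. Ifnar2 and Il10rb also overlap Gm21970 on the same strand, which was at 0.66 FPKM in controls and 0.78 FPKM in mutants.

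The 31 other interferon-induced genes followed the same 2 libraries. Control 4 was the highest control in 26 of them and mutant 1 the highest mutant in 29. Their mean level relative to the control mean, in log2 units, was -0.09, -0.15, -0.13 and 0.37 in controls 1 to 4 and 0.41, -0.11 and -0.09 in mutants 1 to 3. The 30 interferon response members gave -0.26, -0.07, -0.16 and 0.49 in controls and 0.30, -0.32 and -0.33 in mutants. The 6 tested class II antigen presentation genes, which present peptides from outside the cell, gave 0.22, -0.31, 0.27 and -0.18 in controls and 0.90, 0.05 and 0.22 in mutants. Mutant 1 was thus high in all 3 lists, and control 4 only in the interferon-induced lists.

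**Figure D5:**
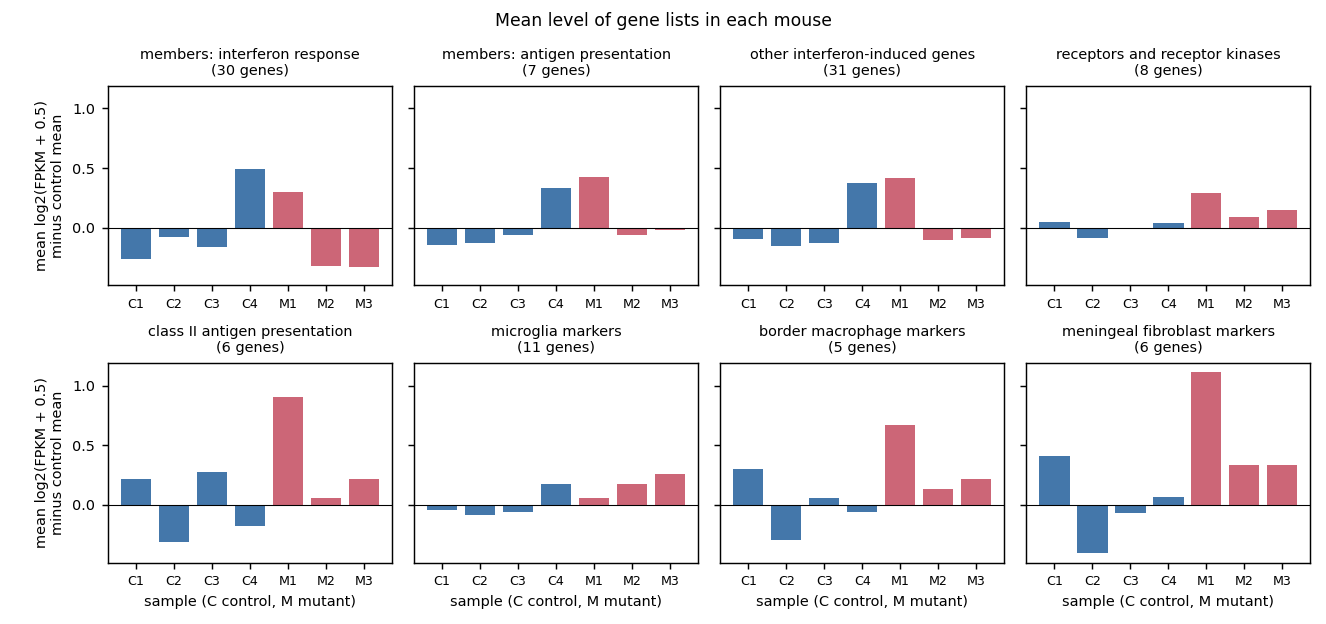
Mean of log2(FPKM + 0.5) over the tested genes of each list, minus the control mean, in control (C) and mutant (M) samples. Control 4 and mutant 1 are the highest of their genotype in both groups of members and in the other interferon-induced genes, while class II, border macrophage and meningeal fibroblast lists are highest in mutant 1 and not in control 4.

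Markers of other cells that carry these genes moved with some of these libraries, and their part in the values above was not tested. Positive fold changes of markers were counted on FPKM only, a scale on which the split of the members differed from that on other scales. The summed FPKM of 11 microglial markers was 363 to 450 in controls, highest in control 4, and 410 to 455 in mutants, lowest in mutant 1, with 10 of 11 log2 fold changes positive and 0 past the threshold. The summed markers of border macrophages were 25.3 to 41.5 FPKM in controls and 36.2 to 55.0 FPKM in mutants, and those of meningeal fibroblasts 694 to 1274 and 1164 to 2153 FPKM, both highest in mutant 1 and with all 5 and all 6 log2 fold changes positive but 0 past the threshold. Monocyte and neutrophil markers summed to 5.23 to 29.3 FPKM in controls, highest in control 4. In mutants 1 to 3 they summed to 41.5, 7.95 and 39.5 FPKM, so mutant 3 was close to mutant 1. Ly6g was at 0 in some samples. Endothelial markers summed to 135 to 156 FPKM in controls and 163 to 184 FPKM in mutants, with all 8 log2 fold changes positive and 0 past the threshold. Markers of B and plasmacytoid cells summed to 10.9 to 13.5 FPKM in controls and 14.3 to 17.5 FPKM in mutants, with all 5 tested log2 fold changes positive and 0 past the threshold. Siglech gave the largest part of this sum in every sample. It was at 6.97 to 8.62 FPKM in controls and 6.86, 10.6 and 11.0 FPKM in mutants 1 to 3. Among the mutants Siglech was lowest in mutant 1, as were the summed microglial markers, whereas Cd79a was highest there (4.26, 1.30 and 2.10 FPKM). The mean log2 level of the B and plasmacytoid list relative to the control mean was highest in control 4 (0.14) and mutant 1 (0.59) within each genotype, with mutant 3 at 0.45. T and NK cell markers summed to at most 1.40 FPKM in any sample, with Cd8a and Ncr1 at 0 in some. Astrocyte markers summed to 2903 to 3338 FPKM in controls and 3752 to 4606 FPKM in mutants, with 4 of 7 past the threshold and higher. OL markers, which define the tissue, summed to 56484 to 64244 and 41127 to 52638 FPKM, with 2 of 7 past the threshold and lower. Those of OL progenitors summed to 329 to 361 FPKM in controls and 245 to 285 FPKM in mutants, with 2 of 4 past the threshold and lower. Mural cell markers summed to 272 to 370 and 361 to 527 FPKM, highest in mutant 1, with all 6 log2 fold changes positive and 0 past the threshold. Among the Y-linked genes, high levels were found in controls 3 and 4 and mutant 3 only, so control 4 and mutant 1 differed in this respect.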

How the data were processed

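Optic nerves of 4 control and 3 mutant mice were grouped by their labels. Per the labels and the study's methods, libraries were made with a stranded mRNA kit and sequenced single end, and reads were aligned with STAR 2.5.1b to GRCm38 and quantified with RSEM 1.2.22. Whether the counting used the strand is not given in the sources used here, so overlapping genes are named. The authors deposited FPKM values and normalized counts, a signal per gene made by dividing estimated counts by a size factor whose method is not given in the sources used here. The deposited table also holds the GC content of each gene as a fraction, which was not used, and the authors' own fold changes and p-values from edgeR, which were not used either. All 14 columns of values per sample were mapped.

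The test was limma-trend (limma 3.58.1, R 4.3.3) on log2(FPKM + 0.5), two-sided, with genotype alone in the model. It covered the 13866 genes that reached 0.5 FPKM in 3 or more samples, and p-values were adjusted over all of them by Benjamini-Hochberg (threshold 0.05). Fold changes on this scale understate the change of low genes. Reads were estimated by dividing normalized counts by the value of 1 read in each sample. Of the values between 0.5 and 10 reads, 78.2% to 83.5% came out within 0.1 of a whole number, so edgeR was not rerun on recovered reads. Limma-voom was run on these estimated reads only as an added alternative, and its values carry the same uncertainty. The members had 18.6 to 6890 estimated reads per sample. Replicates differed by more than sampling noise (median chi-square per gene 2.15 to 6.36 between samples of a genotype). Samples carry numbers in the labels. The labels do not say what a number stands for. Same-numbered samples deviated from their group means together (correlations across genes 0.168, 0.409 and 0.270, against -0.353 to 0.205 for other pairs). A fit with the numbers as a replicate block was therefore run beside the main one. The pairing was thus inferred from these same data, and control 4 with mutant 1 (0.205) exceeded pair 1 (0.168). Same-numbered samples also shared Y-linked expression, high in number 3 and low in 1 and 2. The block and that difference cannot be told apart. The exact permutation test of single genes is two-sided over 35 assignments. The fit was tested on simulated data.

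The 37 members and all lists were chosen with earlier results of these data known. Full values were given for members past the threshold, the 3 highest and 3 lowest log2 fold changes, the 3 smallest p-values, the factors and the antigen presentation genes, beside 4 receptor genes near Olig2. Other genes given with values in every sample were picked after their values were seen. In the list of 103 pathway genes, 4 symbols were not found and 2 with 2 gene IDs each were left out. Gene positions are those of the table (GRCm38), and promoters are from RefSeq (GRCm38.p6).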

Additional observations from a re-analysis of the deposited data

Results flagged for a closer look

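In 4 of the 37 genes (10.8%) control 4 lay so far above the other controls that its gap to the nearest of them, as a share of the range of the 4 controls, exceeded the critical value of Dixon's test. This share was 0.901 in Ddx58 (RIG-I), 0.873 in Tap1 (peptide transporter), 0.844 in Ifitm3 and 0.843 in Gbp7. Chance flags about 1 in 20 groups, and over all genes tested 5.79% had a control set apart in either direction, and 0.793% had control 4 set apart as the highest. The mutant groups hold 3 samples each and were not examined this way.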

How the results depend on the processing

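With 4 against 3 mice and the spread between mice given in the report, differences in the most variable members, such as Irf7 and Isg15, were not bounded within 1 log2 unit towards lower values in mutants. The count of all genes called was 1159 with the replicate block and 95 without a filter on low values, and 6 to 909 with 1 sample left out. Members called were 3 with the block (Ifit2, Ifitm2 and Irf1) and 0 to 1 with 1 sample left out, Ifi27 without mutant 1. Other pathway genes called were 4 with the block (Il10rb, Ifnar1, Ifitm1 and Erap1), 1 with quantile normalization and 1 with median centring (Il10rb in both), and 0 to 3 with 1 sample left out, where the 3 without mutant 2 were Il10rb, Ifnar1 and Ifitm1. The median log2 fold change of the members ran from -0.17 (without mutant 1) to 0.15 (without control 4).

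Alternatives added after seeing the data were limma-voom on estimated counts and the removal of both control 4 and mutant 1. The removal left 116 genes called over the table and 0 of the members. Of the members, 10 then had an unadjusted p under 0.05, and the share of all genes at that level is not given here. Pseudocounts of 0.1 and 1, robust empirical Bayes and a minimum of 1 FPKM called 0 members.

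Fold changes near 0 changed sign. With normalized counts, quantile normalization and median centring, respectively, the log2 fold change was -0.0238, -0.0112 and -0.0298 for Ifnar2, -0.0261, -0.0884 and -0.0389 for Psmb9, and -0.0130, -0.0441 and -0.0267 for Tap1. Irf9 was at 0.0869 with the block and 0.0123 with limma-voom, and Psmb8 was at 0.107 with the block. With 1 sample left out, the log2 fold change ranged from -0.212 to 0.110 for Irf9, from -0.146 to 0.148 for Psmb8, from -0.144 to 0.173 for Psmb9, from -0.127 to 0.261 for Tap1 and from -0.0426 to 0.210 for H2-K1; the lowest value came without mutant 1 in all 5. Without both control 4 and mutant 1, Ifnar2 was at -0.0039, Psmb9 at -0.0140 and Psmb8 at 1.8e-05. Olig2 lost its call without a filter and without control 4 and mutant 1 together. The cause of these changes was not tested. Over the named genes, leaving out 1 sample reversed 12 of 147 values, and the other settings reversed 15 of 231.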
